A study of Canis lupus familiaris with 7 samples.

Results

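Neuropeptide Y (NPY), cholecystokinin (CCK) and 8 further genes of neuropeptide signalling were followed through 7 primary canine osteosarcomas (OS). The list held the peptides NPY, CCK, VIP, SST and TAC1, the NPY receptors NPY1R, NPY2R and NPY5R, the peptidase DPP4 and the granule protein CHGB, and every array probe whose gene name equalled one of them was taken. Of the 10 genes, 9 had a probe under their symbol, with 14 probes in all, out of 13066 gene symbols and 43603 probes on the array. NPY2R was not analysed here. NPY and CCK were picked because of their values in these same tumours, so their differences between tumours are a description and were not tested.

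Total RNA of each tumour was labelled with Cy3 and hybridised to a canine Agilent array of 60-base probes, 1 array per tumour. By their genotype labels, 4 tumours were DLG2 deleted and 3 were DLG2 wild type. The DLG2 protein is a scaffold that holds signalling proteins together at the membrane. The comparison asked which transcripts differ between tumours labelled DLG2 deleted and DLG2 wild type. The study took the genotype from array-based copy number profiles of the tumours, and the samples are whole tumour tissue from pet dogs of several breeds. The deleted tumours 1 to 4 came from dogs aged 8, 9, 6 and 7 years with the sex labels MC, FS, MC and FS. The wild-type tumours 1 to 3 came from dogs aged 12, 10 and 8 years with the sex labels FS, FS and MC. No treatment is given in the labels.

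Neuropeptides are small secreted signals that are cut from larger precursors, stored in dense-core granules with granins and released onto G protein-coupled receptors. NPY is made by sympathetic nerves, which also reach bone, and acts on bone through Y1 receptors on osteoblasts and Y2 receptors in the brain. DPP4, a peptidase on the cell surface, removes the first residues of NPY and so shifts its choice of receptor. CCK, somatostatin (SST), vasoactive intestinal peptide (VIP) and the tachykinins encoded by TAC1 are best known from gut and nerve.

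The sequences of 3 probes are shown because the main values rest on them. The CCK probes overlap, and the capitals mark the 50 bases that they share. Of the NPY probe, the last 30 bases are shown, and its capitals mark a polyadenylation signal motif, AATAAA.

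CCK probe A_11_P051971: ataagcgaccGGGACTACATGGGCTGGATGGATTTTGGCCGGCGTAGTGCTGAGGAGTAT

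CCK probe A_11_P0000029490: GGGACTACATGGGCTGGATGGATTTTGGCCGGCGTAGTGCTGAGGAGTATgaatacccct

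NPY probe A_11_P079441, bases 31 to 60: gtgtgtttaAATAAAgtaccaagcattcaa

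In the canFam2 build used by the files, the CCK probes lie on the minus strand at chr23:14456181-14456240 and chr23:14456171-14456230, and the NPY probe on the plus strand at chr14:40789262-40789321. The motif AATAAA was present in 8.67% of the 43603 probes as printed and in 11.4% on either strand. Its presence in the NPY probe is a description of the sequence only. No gene annotation of that build was used here, so the exon or UTR holding each probe is not given.

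All levels below are log2 intensities after background correction and quantile normalization, and a difference is deleted minus wild-type. Probes that the scanner software marked as well above background on 3 or more of the 7 arrays were tested. Of the 14 probes, 10 passed, which belonged to NPY, CCK, DPP4, TAC1 and CHGB, while those of NPY1R, NPY5R, VIP and SST did not. The arrays had between 30280 and 34538 probes well above background and 0 saturated spots. Wild-type tumours 1 and 2 gave profiles closer to each other (Pearson r of 0.987 over probes) than any of the other 20 pairs of tumours (0.935 to 0.966). By the labels these were separate dogs, and results were also computed with the pair averaged into 1 tumour. The single DLG2 probe read between 10.37 and 11.44 in deleted and between 10.91 and 12.03 in wild-type tumours, so it did not separate the groups (difference of -0.77, limma adjusted p = 0.710). Of 7 osteoblast markers with a probe, all 7 passed the filter, with a summed intensity of 154856 to 368156 in deleted and 280868 to 337780 in wild-type tumours.

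**Figure D1:**
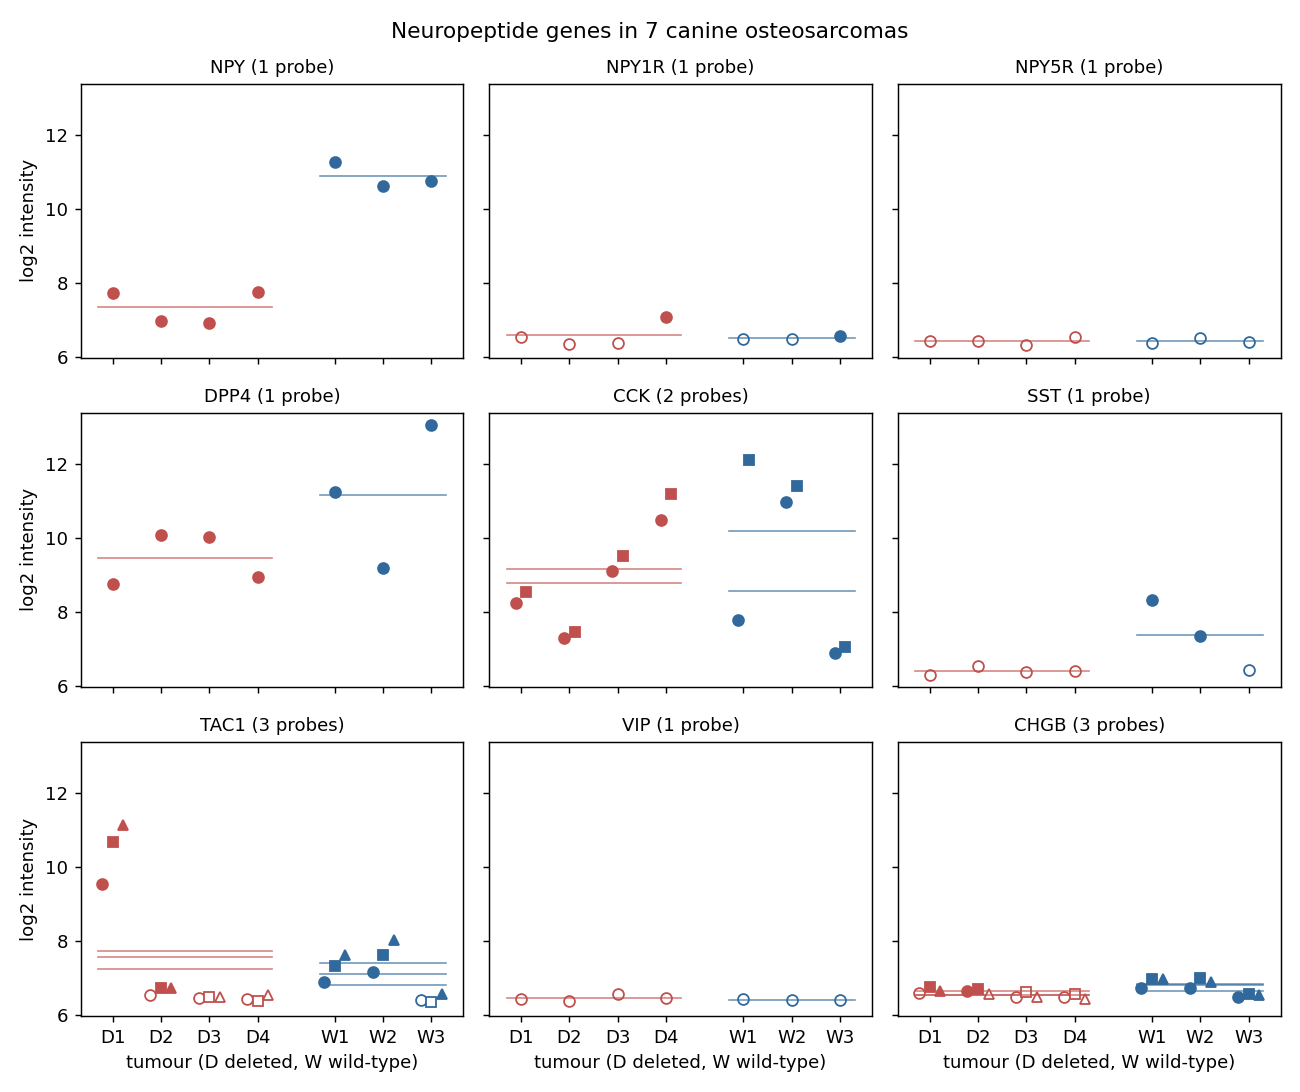
Log2 intensity (vertical axis) of the 9 genes in each tumour (horizontal axis; D1 to D4 deleted in red, W1 to W3 wild-type in blue). Each symbol is 1 probe on 1 array, with different shapes for different probes of a gene, open where it was not well above background, and lines are group means; NPY is the gene whose tumours fall into 2 separate levels, at 6.93 to 7.76 and at 10.63 to 11.26.

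NPY was low in every deleted tumour and high in every wild-type tumour. Deleted tumours 1 to 4 read 7.74, 6.96, 6.93 and 7.76. Wild-type tumours 1 to 3 read 11.26, 10.63 and 10.76. The levels thus formed 2 clusters along the genotype label, with an empty stretch of 2.87 between the highest deleted and the lowest wild-type tumour. The group means were 7.35 ± 0.47 (SD, n = 4) and 10.88 ± 0.33 (SD, n = 3), which corresponds to an 11.6-fold higher intensity in wild-type tumours. This fold includes the constant of 50 that was added to every spot, and without it, on the scanner's processed intensity, the difference grew from -3.54 to -5.00 on the log2 scale. The probe was well above background on all 7 arrays, so the gene was measured in deleted tumours as well.

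In the order of NPY levels, wild-type tumour 1 was followed by wild-type tumours 3 and 2 and then by deleted tumours 4, 1, 2 and 3. Deleted tumours 4 and 1 differed by 0.02 and deleted tumours 2 and 3 by 0.03. The SD between replicate spots of the same probe within an array had a median of 0.07 to 0.11, so neither pair differed beyond it. Deleted tumour 1 lay 0.78 above deleted tumour 2, which split the deleted group into a pair near 7.7 and a pair near 6.9. On the scanner's processed intensity, the deleted tumours read 98.3, 25.9, 19.9 and 86.0. The wild-type tumours read 2337, 1310 and 2269 on that scale. Deleted tumours 2 and 3 were thus the dimmest, and their spots had a mean of 55.9 and 46.7 over a local background of 20 and 16.

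The difference in NPY was also computed within technical subsets that held both genotypes, where its sign was given beforehand because the groups do not overlap. On the slide that carried wild-type tumour 2 with deleted tumours 2 and 3, the difference was -3.69. It was -3.41 among the 4 arrays of feature extraction session 1 and -3.27 among the 3 arrays of session 2, a session being a run of the image software. With age as a covariate it was -3.33, and with the sex label -3.52. The dogs with wild-type tumours were 8 to 12 years old and those with deleted tumours 6 to 9 years old. With wild-type tumours 1 and 2 counted as 1 tumour the difference was -3.50. Groups that do not overlap, with the deleted tumours lower, were found for 1364 of the 32231 probes with a value on all arrays, or 4.23%, and since NPY was chosen for this pattern nothing is read from that share. The SD of NPY over the 7 tumours, 1.93, was larger than that of 99.8% of the tested probes. For the same reason nothing is read from this rank.

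Since NPY is best known from nerve cells, neuronal markers were set beside it. Of 16 markers of neurons and sympathetic neurons, 14 had a probe and 11 passed the filter. ELAVL3 and PRPH passed it through the wild-type tumours alone, being well above background in 3 of them and in 0 deleted tumours, so no count of directions is given. The summed intensity of the tested markers was 6288 to 10760 in deleted and 8116 to 12952 in wild-type tumours, so the groups overlapped. TUBB3, by far the brightest (means of 12.64 in deleted and 12.98 in wild-type tumours), weighs most in this sum. The markers' median deviation from their mean over tumours does not depend on brightness in this way. It was -0.20 to 0.01 in deleted and -0.04 to 0.26 in wild-type tumours, which overlapped too. None of these markers was called by limma. SNAP25 and ELAVL3 had an unadjusted p below 0.05 by limma, as did 7.27% of all probes. Because ELAVL3 passed the filter through the wild-type tumours alone, nothing is read from its p.

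The enzymes that make noradrenaline, which sympathetic neurons release together with NPY, had small differences. TH differed by 0.18 (limma adjusted p = 0.965) and DBH by -0.11 (limma adjusted p = 0.903). SYP, a synaptic vesicle protein, and NEFM, a neurofilament subunit, were not well above background on enough arrays to be tested. SNAP25, a synaptic vesicle fusion protein, differed by -0.49 (SE 0.12, limma adjusted p = 0.5003) with separate groups, while its second probe differed by -0.11. Of 5 megakaryocyte markers with a probe, 3 passed, and their summed intensity was 554 to 594 in deleted and 626 to 799 in wild-type tumours. Each of these 3 markers taken alone overlapped between the groups. All 11 leukocyte markers passed the filter, with a summed intensity of 3405 to 8560 in deleted and 3969 to 8228 in wild-type tumours, and 0 were called. MS4A1, a B cell marker, was well above background in 3 deleted and 0 wild-type tumours. It thus passed the filter through the deleted group alone, so no count of markers is given. CD3D, CD3E and CD8A, which mark T cells, lay higher in deleted tumours without overlap (differences of 1.98, 0.51 and 0.36), as did 3.90% of all probes. CD2, which also marks T cells, overlapped between the groups at 0.30, as did CD79A and CD79B at 0.10 and 0.08. So did CD68, CSF1R, PTPRC and ITGAM, at -0.74, -0.55, -0.15 and -0.14. The part of these cell types in the NPY result was not tested. In whole tumour tissue, fewer cells of a type and less RNA per cell cannot be told apart.

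By a rule of likeness, 5 genes followed the NPY pattern most closely. Each probe was centred and divided by its SD over the 7 tumours, and the distance to NPY was the root mean square difference. The nearest were SIKE1 at 0.097, LRWD1 at 0.13, FDPS at 0.14, RPS7 at 0.15 and GARNL3 at 0.16. These genes resembled NPY in shape but not in size: their differences were -0.23, -0.54, -0.90, -0.43 and -1.79. The RPS7 probe shares 54 bases with a second RPS7 probe. In deleted tumour 1 the difference between these probes departed by -0.90 from its median over the tumours. The likeness of RPS7 to NPY therefore depends on the probe. FDPS is an enzyme of the mevalonate pathway, RPS7 a protein of the small ribosomal subunit and GARNL3 a protein with a Rap GTPase-activating domain. For GARNL3 the deleted tumours read 8.54, 8.48, 8.24 and 8.61 and the wild-type tumours 10.56, 10.30 and 9.94. As for NPY, wild-type tumour 1 was the highest and deleted tumour 3 the lowest.

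The receptors of NPY gave little signal. NPY1R (chr15:62599926-62599985) was well above background in deleted tumour 4, at 7.08, and in wild-type tumour 3, at 6.57. In the remaining 5 tumours it was not. NPY5R (chr15:62625934-62625993) was not well above background in any of the 7 tumours. These probes were therefore not tested, and a single bright tumour, deleted tumour 4, was all that stood out.

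DPP4 (chr36:10408404-10408463) was bright in all tumours, but the groups overlapped. Deleted tumours 1 to 4 read 8.75, 10.08, 10.03 and 8.96. Wild-type tumours 1 to 3 read 11.24, 9.20 and 13.05. Wild-type tumours 3 and 1 were the 2 highest, while wild-type tumour 2 lay among the deleted tumours. The means were 9.45 ± 0.70 (SD, n = 4) and 11.16 ± 1.92 (SD, n = 3), and the difference of -1.71 (SE 0.87) did not pass the threshold (limma adjusted p = 0.754). In the order of levels, deleted tumours 2 and 3 differed by 0.05, less than the spread of replicate spots.

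The sign of the DPP4 difference depended on which arrays were compared. It was 0.49 within feature extraction session 1, -3.39 within session 2 and 0.85 on the shared slide. Without wild-type tumour 3 it shrank to -0.77, and without wild-type tumour 2 it grew to -2.69. Wild-type tumour 3 also read highest for the osteoclast markers ACP5, CTSK, MMP9 and ATP6V0D2. CALCR read 7.16 in it and was highest in deleted tumour 1, at 7.23. Over these 5 markers wild-type tumour 3 had a median deviation of 2.77 from their mean over tumours. The summed intensity of these 5 markers was 10654 to 69731 in deleted and 32269 to 227494 in wild-type tumours, and their part in the DPP4 level was not tested.

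**Figure D2:**
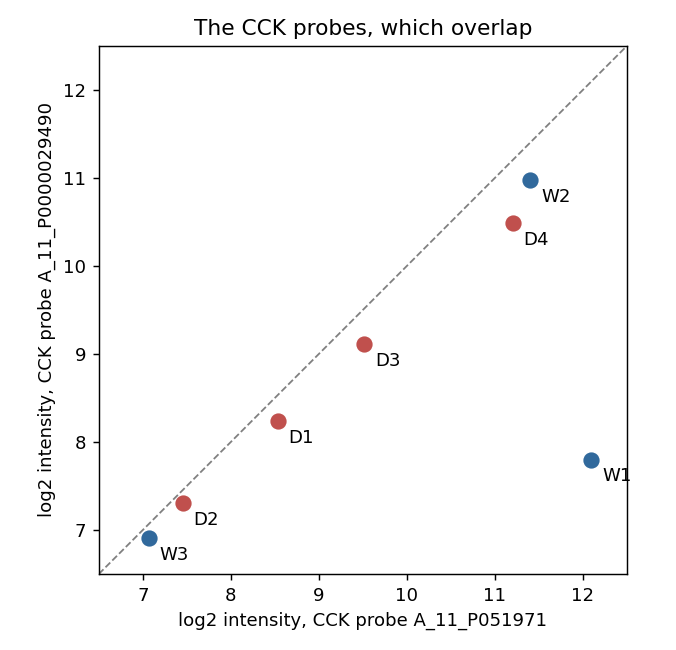
Log2 intensity of the CCK probes against each other (A_11_P051971 horizontal, A_11_P0000029490 vertical; deleted tumours in red, wild-type in blue, dashed line of equal values). In 6 tumours the points run along the line at a distance of 0.15 to 0.71, and wild-type tumour 1 lies 4.29 away from it.

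CCK varied widely between tumours, and for both probes the groups overlapped. Its SD over the 7 tumours was larger than that of 99.8% (A_11_P051971) and 99.5% (A_11_P0000029490) of the tested probes. CCK was chosen for its pattern between these tumours, so nothing is read from these ranks. With probe A_11_P051971, deleted tumours 1 to 4 read 8.53, 7.45, 9.52 and 11.20. The wild-type tumours 1 to 3 read 12.09, 11.40 and 7.07 with it. With probe A_11_P0000029490, the deleted tumours read 8.24, 7.31, 9.11 and 10.49. The second probe gave 7.80, 10.98 and 6.91 in the wild-type tumours. Both probes were well above background on all 7 arrays, and both placed deleted tumour 4 and wild-type tumour 2 high and deleted tumour 2 and wild-type tumour 3 low.

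The CCK probes disagreed in 1 tumour. Probe A_11_P051971 exceeded the other by 0.15 to 0.71 in 6 tumours and by 4.29 in wild-type tumour 1, although they share 50 of their 60 bases, printed above in capitals. In wild-type tumour 1 the spot means were 4749 and 155, the spot medians 4657 and 155, and neither spot carried an outlier mark. Among 263 probe pairs that share at least 50 bases, the largest departure of any array from the pair's usual difference had a median of 0.15. The CCK pair, at 3.89, was the only pair above 2, and the next was a GCN1L1 pair at 1.29. The CCK level of wild-type tumour 1 is therefore uncertain: it was the highest of all tumours by one probe and the fifth by the other.

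The direction of the CCK difference depended on the probe. It was -1.01 with A_11_P051971 (means 9.18 ± 1.59, SD, n = 4, and 10.19 ± 2.72, SD, n = 3). With A_11_P0000029490 it was 0.22 (means 8.79 ± 1.35, SD, n = 4, and 8.56 ± 2.14, SD, n = 3). Without wild-type tumour 1 the probes gave -0.06 and -0.16, and without wild-type tumour 3 the first probe gave -2.57. On the shared slide the differences were -2.92 and -2.77, and within session 1 both were -2.01, while in session 2, which holds wild-type tumour 1, they were -1.05 and 0.88.

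The genes nearest to CCK depended on the probe as well. For A_11_P0000029490 they were PDK4 at a distance of 0.32, ATG14 at 0.33, MTA1 at 0.34, MAP2K4 at 0.36 and ZFC3H1 at 0.39. For A_11_P051971 they were ADPRM at 0.14, FKBP11 at 0.17, MTHFD1 at 0.18, SNUPN at 0.21 and EID1 at 0.22. The lists shared 0 genes. PDK4, a kinase that restrains the use of glucose by mitochondria, had a range close to that of CCK, with 11.43 in deleted tumour 4, 10.91 in wild-type tumour 2 and 6.91 in wild-type tumour 3. Deleted tumour 4 also read highest for the adipocyte markers ADIPOQ, PLIN1, CIDEC and LPL, but lowest for LEP, at 7.96. That LEP probe differed by 0.02 between the genotypes and another LEP probe by 0.81. Over these 5 markers deleted tumour 4 had a median deviation of 3.12 and a summed intensity of 15414, against at most 922 in wild-type tumours. Their part in the CCK level was not tested.

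SST was seen in wild-type tumours only, and not in all of them. Its probe (chr34:23071583-23071642) read 8.33 in wild-type tumour 1 and 7.34 in wild-type tumour 2. In wild-type tumour 3 and in all 4 deleted tumours it was not well above background. No fold is given, since 1 wild-type tumour and all deleted tumours were without a measured level. The probe failed the filter and was not tested, and the tumours with signal were those with the closely related profiles. VIP was not well above background in any of the 7 tumours.

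TAC1, the precursor of substance P and neurokinin A, was high in a single tumour. Its 3 probes (chr14:25588638-25588697, chr14:25588786-25588845 and chr14:25588815-25588874) read 9.54, 10.67 and 11.13 in deleted tumour 1. The same probes read 7.17, 7.62 and 8.02 in wild-type tumour 2, and 6.91, 7.33 and 7.63 in wild-type tumour 1. In deleted tumours 2 to 4 and wild-type tumour 3 no probe exceeded 6.75, and most were not well above background. All 3 probes thus gave the same order at the top: deleted tumour 1, then wild-type tumours 2 and 1. The difference between genotypes was 0.43, 0.47 and 0.32 (SE 0.79, 1.09 and 1.20), and no probe passed the threshold (limma adjusted p = 0.949, 0.961 and 0.977). Without deleted tumour 1 it was -0.33, -0.57 and -0.81, so that 1 tumour set its sign.

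CHGB, chromogranin B, a matrix protein of dense-core granules, lay close to background. Its 3 probes on chromosome 24 were well above background in all 3 wild-type tumours but only in 1, 2 and 1 of the 4 deleted tumours, and they ranged from 6.44 to 7.01 over all tumours. Wild-type tumours 1 and 2 were the 2 highest with each probe, at 6.75 and 6.74, 6.99 and 7.01, and 6.99 and 6.89, while wild-type tumour 3 lay inside the range of the deleted tumours. The differences were -0.10, -0.19 and -0.27 (SE 0.10, 0.13 and 0.13), and no probe passed the threshold (limma adjusted p = 0.903, 0.846 and 0.737). Unlike NPY, DPP4 and TAC1, CHGB varied little on this scale. Its SD over the 7 tumours exceeded that of 17.1% to 38.2% of the tested probes. The added constant of 50 shrinks differences this close to background, so the small spread says little. Without it, the scanner's processed values, quantile scaled, gave -1.14, -0.82 and -2.10 in the same probe order, with 0 called. Other settings turned the sign. Normexp with the 75th percentile gave 0.72, 0.53 and 0.49. Age as a covariate gave 0.052 and 0.0088 for A_11_P181278 and A_11_P203318.

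Outside NPY and CCK, 7 probes of 3 genes were tested, and 0 were called by limma when both an unadjusted p below 0.05 and an adjusted p below 0.1 (Benjamini-Hochberg) were required. The same held for 0% of all 32309 probes. At an unadjusted p below 0.05, limma counted 0 of the 7 probes, against 2349 of all probes or 7.27%, and the methods' t-test counted 0 of the 7 and called 0. Groups that do not overlap occurred in 0 of the 7 probes, against 8.14% of all probes in either direction. The genotype difference was also compared between the sex labels with an interaction term. It gave adjusted p-values of 0.650 to 0.901 for these probes, and only wild-type tumour 3 stands for the label MC among wild-type tumours. Over all probes limma called 0 for this term, with 2565 at an unadjusted p below 0.05.

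**Figure D3:**
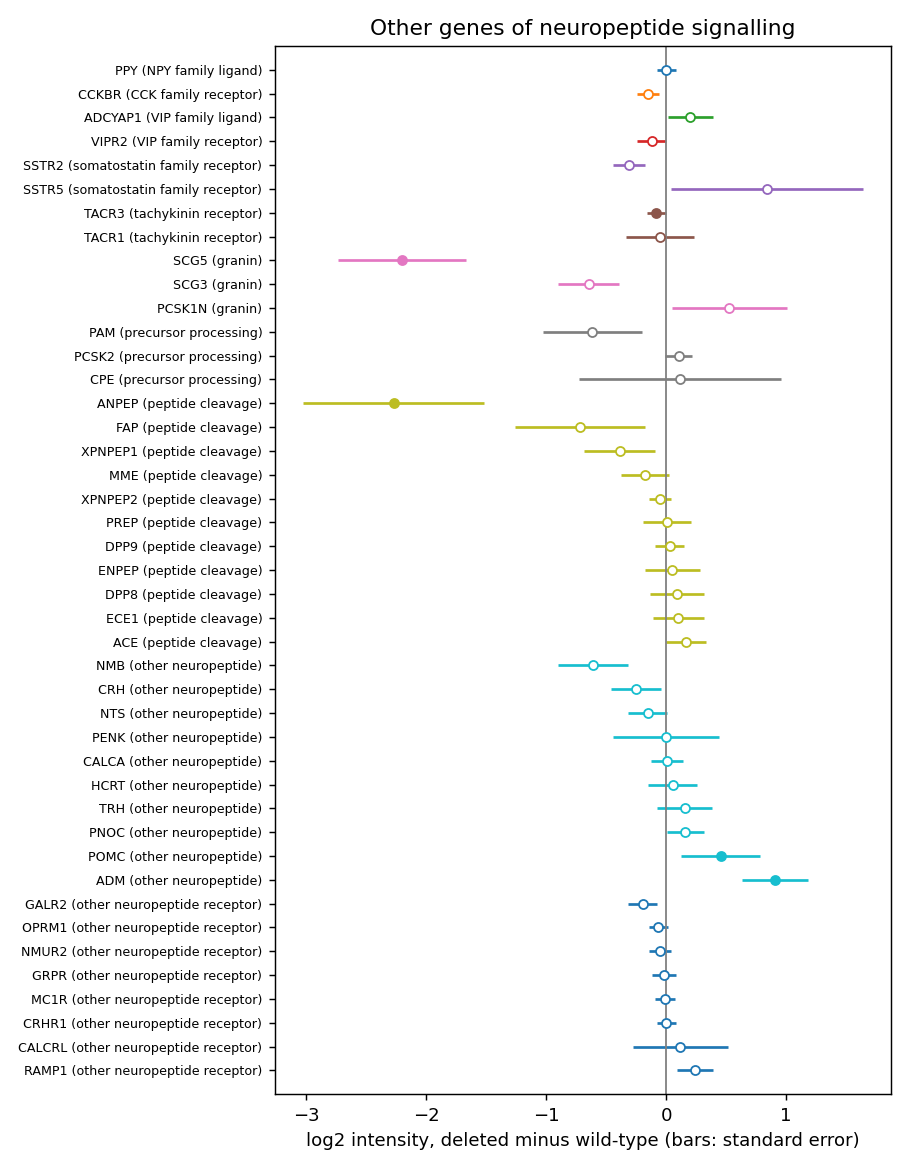
Difference in log2 intensity, deleted minus wild-type (horizontal axis), of the 43 tested genes of the wider list, grouped by role. Points are 1 probe per gene, filled where the groups do not overlap, and bars are the standard error of the limma fit; most genes lie near 0, with SCG5 at -2.20 and ANPEP at -2.27 to the left and ADM at 0.91 to the right.

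The other genes of neuropeptide signalling were taken from a list of 84 symbols for ligands, receptors, granins, and enzymes that process or cleave peptides. A probe was found for 64, of which 21 were not well above background on enough arrays and 43 were tested, with 1 probe per gene. Of these, 20 had a difference above 0 and 23 below 0, and the median of -0.0043 lay near that of all 11116 genes, 0.014. None was called by limma or by the methods' t-test, and each counted 4 genes at an unadjusted p below 0.05, against 2349 (limma) and 2237 (the methods' t-test) of all 32309 probes. The groups did not overlap for 3 genes lower and 2 genes higher in deleted tumours, against 4.23% and 3.90% of all probes.

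By role, the list held few tested partners of the genes above. PPY, pancreatic polypeptide, a relative of NPY, differed by 0.0016. CCKBR, a receptor of CCK, differed by -0.15, and VIPR2, a receptor of VIP, by -0.12. The group means of PPY, CCKBR and VIPR2 lay between 6.59 and 7.09, close to background. There the added constant of 50 shrinks differences, so a small one says little. Of the somatostatin receptors, SSTR2 differed by -0.31 and SSTR5 by 0.84 (SE 0.80), neither past the threshold. The precursor convertase PCSK1, the granin SCG2, and the receptors CCKAR and TACR2 were among the 21 dim genes.

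The 6 genes with the smallest p of that list are given as values, since none was called. SCG5, a chaperone of the prohormone convertase PCSK2, read 7.98, 7.97, 8.22 and 6.95 in deleted tumours 1 to 4. It read 10.71, 10.50 and 8.75 in wild-type tumours 1 to 3. Deleted tumours were thus all below wild-type tumours, with wild-type tumour 3 nearest to them, and the difference was -2.20 (SE 0.53, limma adjusted p = 0.494). Its other 2 probes also separated the groups, with -1.59 and -1.36. With age as a covariate the difference was -1.43.

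ANPEP, a surface aminopeptidase, read 9.03, 11.68, 12.20 and 10.13 in deleted and 13.44, 12.98 and 12.68 in wild-type tumours. The groups did not overlap, and the difference was -2.27 (SE 0.76, limma adjusted p = 0.602), with -1.33 for a second probe. With the slide as a fixed block the difference was -1.04, which rests on the shared slide alone, with wild-type tumour 2 only. ADM, the vasodilator peptide adrenomedullin, was the one gene of the 6 that lay higher in deleted tumours, at 9.21, 9.17, 9.87 and 10.17 against 8.54, 8.88 and 8.67. Its difference was 0.91 (SE 0.27, limma adjusted p = 0.566), and 0.56 with age as a covariate. SCG3, a granin, differed by -0.64, SSTR2 by -0.31 and NMB, neuromedin B, by -0.61 (limma adjusted p = 0.673, 0.693 and 0.725), and in these 3 genes the groups overlapped. On the processed intensity with quantile scaling they differed by -1.38, -1.04 and -1.44.

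**Figure D4:**
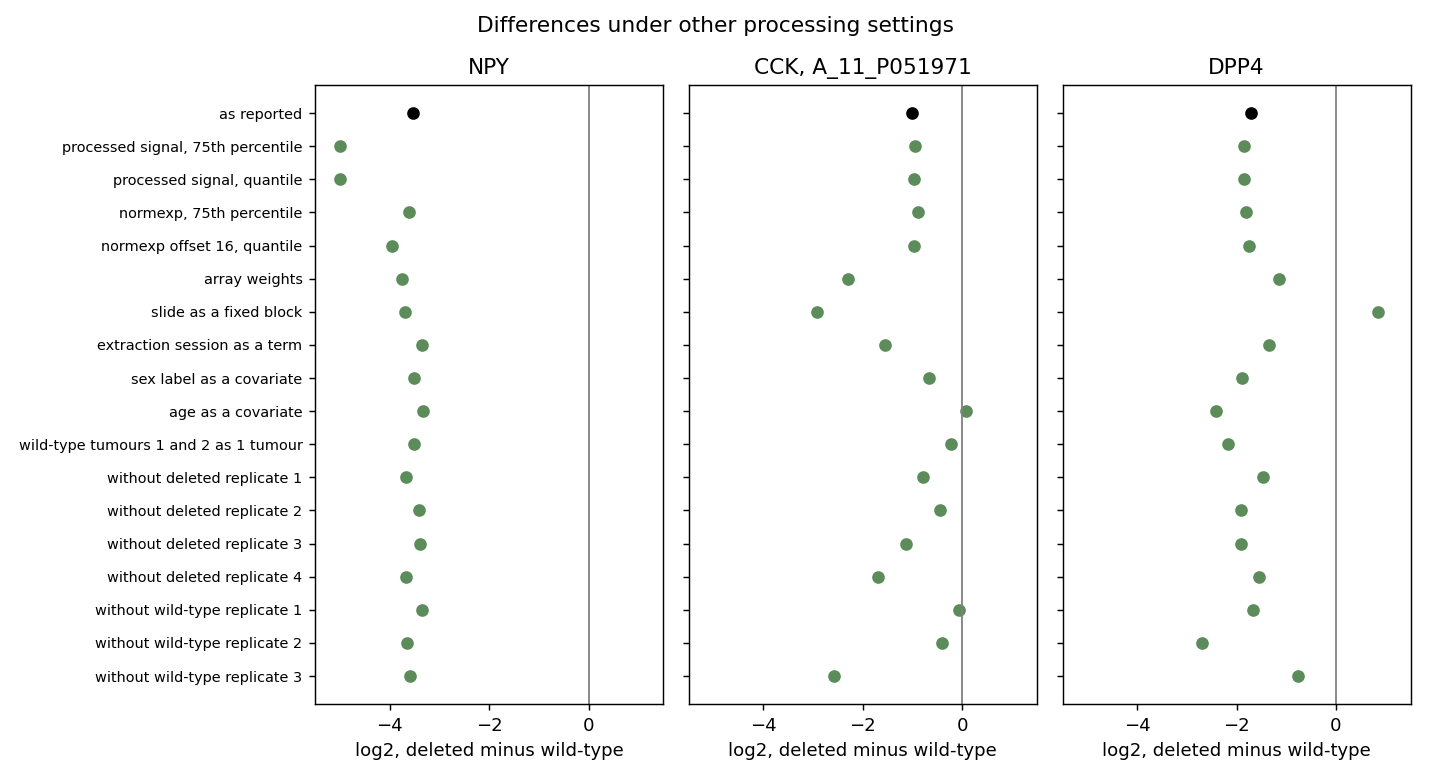
Difference in log2 intensity, deleted minus wild-type (horizontal axis), of NPY, of CCK with probe A_11_P051971 and of DPP4 under each processing setting (vertical axis; black, as reported; green, other settings; replicate numbers are tumour numbers). NPY lies between -5.00 and -3.33, while CCK reaches 0.07 with age as a covariate and DPP4 reaches 0.85 with the slide as a block. The slide as a block rests on the shared slide alone, with wild-type tumour 2 only.

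Across the processing settings the NPY difference lay between -5.00 and -3.33. Its size was largest, -5.00, on the processed intensity, where no constant is added to dim spots. CCK with A_11_P051971 ranged from -2.92 to 0.07, with A_11_P0000029490 from -2.77 to 1.43, and DPP4 from -2.69 to 0.85.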

How the data were processed

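RNA of 7 tumours was measured on 1-colour Agilent arrays, and groups, ages and sex labels came from the sample labels. The members and gene lists were chosen with earlier results of these data known. As deposited, the files gave spot and local background intensity on a linear scale, written by Agilent Feature Extraction 10.7.3.1, and an intensity processed by the same program. The authors' own normalization (RMA) and their correction for an unnamed batch were not repeated here.

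Spot means were background-corrected (normexp on the local median, offset 50), put on the log2 scale and quantile-normalized between arrays with limma 3.58.1 in R 4.3.3. Of 43803 spots without controls, 144 outlier-marked values were dropped, and 50 probes with 5 spots each were averaged. Kept probes, 32309, were well above background on at least 3 arrays. Symbols came from the files and, for 1845 probes, from a RefSeq table (UU_Cfam_GSD_1.0), which gave 20614 named probes. Genotypes were compared by limma (lmFit and eBayes, two-sided, no covariates) over all kept probes, and a probe was called at p below 0.05 and an adjusted p (Benjamini-Hochberg) below 0.1. Labels name tumours only, so p-values measure the spread between tumours with 1 array each, and the number of arrays limits the precision. Which probes lie in the interval deleted around DLG2 was not examined.

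Named were all members with each probe, the 6 genes of the wider list with the smallest unadjusted p where fewer than 6 were called, and the 5 genes nearest to each NPY or CCK probe. GCN1L1, the markers and list genes given by role were named after their values were seen. Single results of some markers are not reported here. Marker lists and the list by role used the probe with the highest mean per gene. Over their tested genes the marker lists other than neurons had a median difference of 0.72 (cartilage, 7 genes), 0.10 (leukocyte, 11), 0.49 (endothelial, 6), 0.14 (skeletal muscle, 5), -0.29 (osteoblast, 7), -1.55 (osteoclast, 5), 0.82 (adipocyte, 5), -0.29 (megakaryocyte, 3) and -0.01 (Schwann cell, 2). Alternatives were other background corrections and scalings, filters, the methods' t-test, trend and robust options, array weights, slide or session as a term, sex label or age as a covariate, wild-type tumours 1 and 2 as 1 tumour, and each tumour left out. Only the slide with deleted tumours 2 and 3 and wild-type tumour 2 held both genotypes. The slide as a fixed block therefore repeats the difference on that shared slide and is no separate check. Scripts were tested on simulated data.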

Additional observations from a re-analysis of the deposited data

Results flagged for a closer look

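TAC1 stood apart in deleted tumour 1 with each of its 3 probes. The gap from this tumour to the next deleted tumour took up 0.962 of the group's range with A_11_P079226, 0.919 with A_11_P0000020958 and 0.945 with A_11_P079231, above Dixon's limit for 4 samples. The probes measure 1 transcript in 1 RNA sample, so they are not 3 independent results. Chance alone exceeds this limit in about 1 in 20 groups, and 20 probes were examined this way, of which 3 exceeded it. Groups of 3, as the wild-type tumours are, were not examined.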

How the results depend on the processing

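The NPY difference was -3.67 to -3.35 when 1 tumour was left out, and it moved to -5.00 with both 75th percentile and quantile scaling of the processed intensity and to -3.96 with an offset of 16. CCK with A_11_P0000029490 moved to -2.77 with the slide as a fixed block, which rests on the shared slide alone. It ranged from -0.60 to 1.43 with 1 tumour left out, and with A_11_P051971 from -2.57 to -0.06. Members and the wider list had 0 calls under all 22 alternatives. Over all probes the count of 0 became 10 and 4 on the processed intensity (75th percentile, quantile), 23 with normexp and the 75th percentile, 1 with an offset of 16, 4 with trend and robust options, 8 with array weights, 1 with slide as a random block, and 0 to 46 with 1 tumour left out, 46 being without wild-type tumour 3. Normexp with the 75th percentile raised the median of all probes to 0.32, and the list's median to 0.44 (-0.05 to 0.0013 with 1 tumour left out).

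Signs turned for DPP4 (0.85, slide as a fixed block) and for SSTR2 (0.32, normexp with the 75th percentile). The TAC1 differences became -0.29 and -0.49 for A_11_P079226 and -1.26 and -1.15 for A_11_P079231 on the processed intensity (75th percentile, quantile), and -0.050 for A_11_P0000020958 with quantile scaling. With the slide as a block they were -0.65, -1.01 and -1.41, and A_11_P079231 was -0.13 with array weights. With 1 tumour left out they ranged from -0.33 to 0.70, from -0.57 to 0.86 and from -0.81 to 0.73. CHGB reached 0.72, 0.53 and 0.49 with normexp and the 75th percentile, and 0.052 and 0.0088 for A_11_P181278 and A_11_P203318 with age as a covariate. The causes were not tested beyond what each setting changes by construction. No paired analysis was possible because the tumour numbers only name tumours of different dogs.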
